A study of Mus musculus with 6 samples.

Results

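The insulin-like growth factor (IGF) family was examined by RNA-seq of cartilage from growth plates of mouse embryos at E18.5. The 10 genes were taken by symbol from the 15803 genes of the expression table. They are the ligands Igf1 and Igf2, the receptors Igf1r and Igf2r, and the binding proteins Igfbp2, Igfbp3, Igfbp4, Igfbp5, Igfbp6 and Igfbp7. Col2a1-Cre;Hnrnpk fl/fl embryos gave the 3 CKO libraries, and there Cre driven by the Col2a1 promoter deletes the floxed exons of Hnrnpk in cells of the chondrocyte lineage. Hnrnpk fl/fl embryos gave the 3 WT libraries, so both genotypes carried the floxed allele and only CKO carried Cre. Embryos of both sexes were used, and how many embryos stand behind a library is not given in the sources used here. The p-values therefore measure the spread between these libraries, which may be partly technical.

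IGF ligands are secreted peptides that promote the growth of cartilage and other fetal tissues by activating Igf1r, a receptor tyrosine kinase. Igf2r binds Igf2 and carries it to the lysosome for degradation. The IGF-binding proteins hold the ligands outside the cell and lengthen or limit their access to the receptor, and secreted proteases release the ligands by cleaving them. Igf2 is the main ligand before birth, whereas Igf1 is regulated by growth hormone after birth.

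Expression was measured as CPM, the reads of a gene scaled to a common library total. In all libraries 100% of the values corresponded to whole reads (within 0.01 reads), which were recovered and summed to 1153871 to 1454094 per library. The 12155 genes that averaged 1 CPM or more were tested with limma on log2(CPM + 1), on which fold changes of weakly expressed genes come out too small, and p-values were adjusted over all of them. All 10 genes passed this filter. Libraries were not equally alike. Between WT 1 and WT 2 the chi-square per degree of freedom over genes was 2.06, where sampling noise alone gives about 1, but WT 3 was at 8.65 and 9.43 from them. CKO 1 and CKO 3 were at 1.29, but CKO 2 was at 13.1 and 14.2 from them. Values without WT 3 and CKO 2 are therefore given beside the results. That setting keeps the libraries most alike, so its p-values understate the spread between libraries. Its calls are not comparable with those from all 6 libraries. Hnrnpk itself ranged from 842 to 955 CPM in WT and from 759 to 949.9 CPM in CKO, so its whole-gene level did not separate the genotypes. The paper reports loss of the Hnrnpk protein from the CKO growth plate at an earlier stage, by western blot and immunostaining. Other transcripts did separate the genotypes. The cartilage matrix genes Matn1 and Comp and the chondrocyte gene Cnmd had means of 6841, 1568 and 9616 CPM in WT and 515, 183 and 1548 CPM in CKO, without overlap. Chondrocyte markers were abundant in all libraries. Their sum over 9 genes was 23468 to 28740 CPM in WT and 5475 to 5506 CPM in CKO, and 7 of the 9 were lower past the adjusted threshold.

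The binding protein genes Igfbp4 and Igfbp7 and the ligand gene Igf2 were lower in the CKO growth plate, and no IGF family gene was higher past the test with all libraries. Igfbp4 fell to 17.5% and Igfbp7 to 23.9% of the mean WT CPM, and Igf2, the most abundant ligand, to 53.2%. These 3 genes passed limma's adjusted p of 0.05, a threshold passed by 5.78% of all genes tested in either direction and by 2.60% with a lower level in CKO. Higher in CKO were 0 of the 10, against 3.18% of all genes, and 0 at an unadjusted p under 0.05, against 11.2%. With edgeR and DESeq2, 0 members were higher, where edgeR with TMM called 374 of 7704 genes higher and DESeq2 344. Neither gave Igfbp2 or Igfbp3 an adjusted p. At such shares, 0 of 10 does not set the family apart. Without WT 3 and CKO 2 the family counts were 4 lower (Igfbp5 in addition) and 2 higher (Igf1 and Igfbp6), where 9.22% of all genes were lower and 11.0% higher. At an unadjusted p under 0.05, 7 of the 10 were lower, against 10.1% of all genes. The study's criterion is a log2 fold change beyond 1 with an unadjusted p under 0.05. Applied to limma's values here, not to the study's own, it gave 5 of the 10 lower (5.10% of all genes) and 0 higher (5.30%). These were Igfbp2, Igfbp3, Igfbp4, Igfbp5 and Igfbp7, while Igf2 fell short with a log2 fold change of -0.98. With CPM rescaled by TMM, that of Igf2 was -1.02 (limma's unadjusted p = 0.00152). In 6 of the 10 genes every CKO library lay below every WT library (13.2% of all genes), and in 0 every CKO library lay above (14.5%). The median log2 fold change was -1.10 over the 10 genes and 0.013 over all genes tested. In whole tissue, fewer cells of a type and less RNA per cell cannot be told apart.

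**Figure D1:**
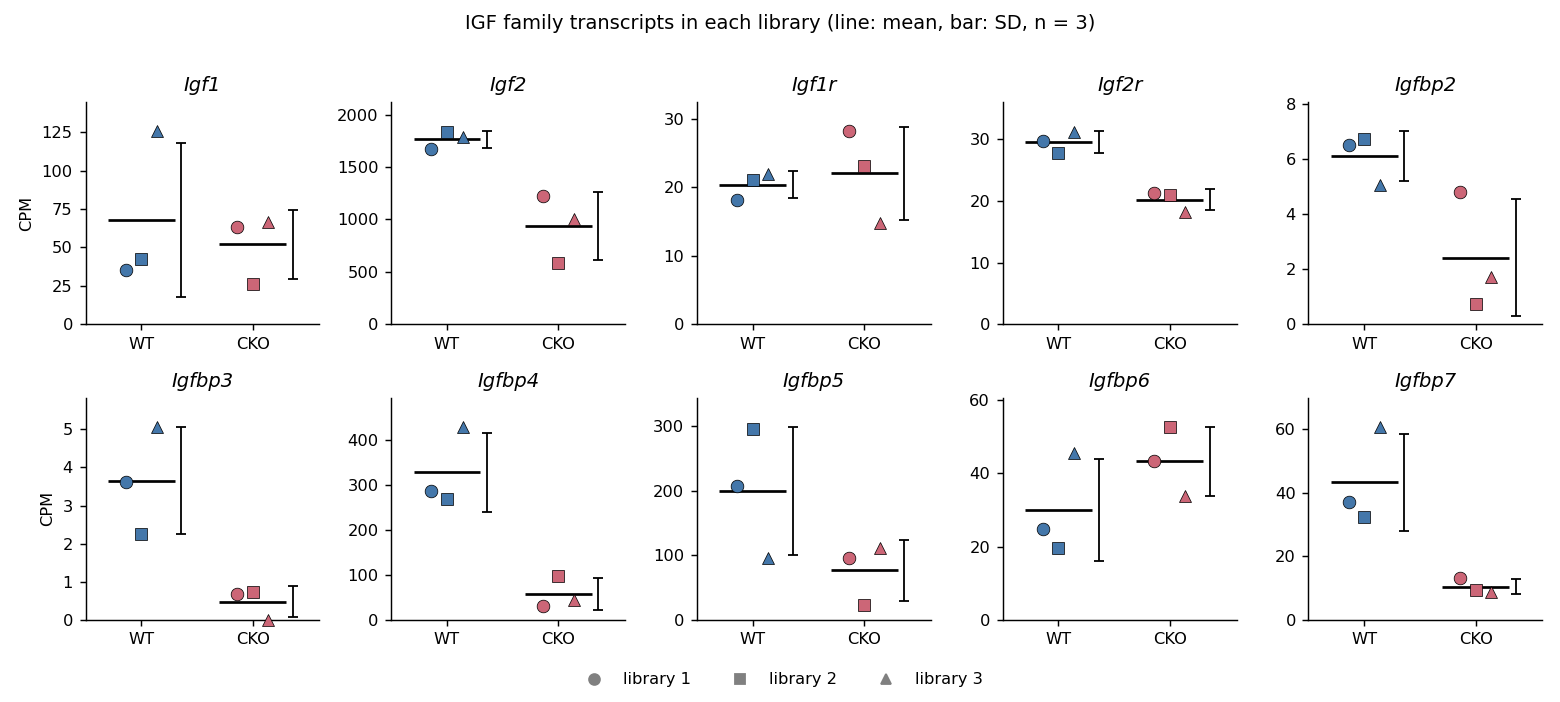
CPM of the 10 IGF family genes in each library (y axis, from 0; each panel has its own scale), with WT in blue and CKO in red; the line is the mean and the bar the SD of 3 libraries. Every CKO library lies below every WT library for Igf2, Igf2r, Igfbp2, Igfbp3, Igfbp4 and Igfbp7, and the groups overlap for Igf1, Igf1r, Igfbp5 and Igfbp6.

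Among the members past the test, Igfbp4 had the largest decrease. Igfbp3, with 16 reads in all and not past the test, had a lower share of its WT mean (12.9%). Igfbp4 encodes a binding protein that mostly restrains IGF action and is cleaved by the protease pappalysin (Pappa). Igfbp4 (ENSMUSG00000017493) lies on the plus strand of chromosome 11 of GRCm38, from 99041244 to 99054392. WT 1, WT 2 and WT 3 had 286, 268 and 429.99 CPM, whereas CKO 1, CKO 2 and CKO 3 had 30.9, 96.7 and 44.2 CPM. The groups did not overlap, and CKO 2, with 134 reads, was above CKO 1 (45 reads) and CKO 3 (51 reads). The mean fell from 328 ± 88.7 CPM (SD, n = 3) to 57.3 ± 34.8 CPM, a difference of -2.63 ± 0.36 (log2 fold change ± standard error, adjusted p = 0.00348 by limma). This value stayed between -3.08 and -2.28 when any single library was left out, and it passed the adjusted threshold each time. Without both WT 3 and CKO 2 it was -2.87.

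Igfbp7 encodes a binding protein with low affinity for IGF, a secreted protein found in vessel walls and many other tissues. It lies on the minus strand of chromosome 5 (ENSMUSG00000036256; 77349240 to 77408041). The WT libraries 1, 2 and 3 had 37.0, 32.3 and 60.8 CPM, and the CKO libraries 13.1, 9.38 and 8.67 CPM. All CKO libraries were below all WT libraries, with WT 3 the highest of all. Igfbp7 fell by 1.93 ± 0.31 on the log2 scale (± standard error, adjusted p = 0.00636 by limma), with log2 fold changes between -2.11 and -1.66 with a library left out, and it passed each time. Polr2b, annotated on the opposite strand over part of Igfbp7, had 44.2 to 65.0 CPM in the WT libraries and 54.3 to 70.2 CPM in the CKO libraries, which overlapped. Whether the counting used strand is not given in the sources used here.

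The promoters of both genes are shown because these are the members that fell the most past the test. Each sequence is the 250 bases before the start site from RefSeq on GRCm38.p6, at chr11:99040994-99041243 on the plus strand for Igfbp4 and chr5:77408046-77408295 on the minus strand for Igfbp7. Capitals mark matches, on either strand, to the letters TATAAA of the TATA box, GGGCGG of the GC box, CCAAT of the box of that name and ACGTG of the hypoxia response element core. These motifs were chosen after the values were seen.
Igfbp4: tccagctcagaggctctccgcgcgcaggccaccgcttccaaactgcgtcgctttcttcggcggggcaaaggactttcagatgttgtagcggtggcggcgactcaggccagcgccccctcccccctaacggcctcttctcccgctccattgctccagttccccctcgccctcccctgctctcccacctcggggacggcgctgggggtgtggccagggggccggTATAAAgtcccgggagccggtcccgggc
Igfbp7: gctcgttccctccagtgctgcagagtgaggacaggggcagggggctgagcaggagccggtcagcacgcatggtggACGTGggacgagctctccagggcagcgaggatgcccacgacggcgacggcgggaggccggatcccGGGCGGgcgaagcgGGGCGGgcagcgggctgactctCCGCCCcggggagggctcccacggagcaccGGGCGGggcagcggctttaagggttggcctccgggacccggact
The Igfbp4 window held 1 TATA box, beginning 28 bases before the start site, and no other match. The Igfbp7 window held 4 GC boxes and 1 hypoxia core, 175 bases before the start. Neither held CCAAT. Of all 32851 promoter windows of this length, 12.4% held a TATA box, 32.7% a GC box, 33.8% CCAAT and 16.6% the hypoxia core. All 10 family genes had an entry, with 14 windows in all, of which 4 held the hypoxia core, in Igfbp7, Igfbp2, Igf2 and Igf2r. In Igfbp2 and Igf2r these matches lay in CACGTG, which reads the same on both strands and is also an E-box. The matches describe letters and not binding, and the expression table does not tell which start site was used.

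Of the other binding proteins, Igfbp5 is the one known for its abundance in bone and for binding to the extracellular matrix. It lies next to Igfbp2 on chromosome 1, Igfbp2 on the plus strand from 72824503 to 72852474 and Igfbp5 on the minus strand from 72857932 to 72874884. For Igfbp5 the WT libraries 1, 2 and 3 had 207, 295 and 96.3 CPM, and the CKO libraries 96.3, 23.1 and 111 CPM. CKO 3 was above WT 3, so the groups overlapped. The difference of -1.50 ± 0.55 (log2 fold change ± standard error) missed the adjusted threshold (adjusted p = 0.146 by limma). Without WT 3 and CKO 2 it was -1.25 and passed (adjusted p = 4.00e-06 by limma), a setting chosen after the data were seen. With 1 library left out Igfbp5 passed in 0 of 6 fits, and the log2 fold change ranged from -1.96 without WT 3 to -0.80 without CKO 2 (adjusted p = 0.0887 and 0.193 by limma). WT 3 had the highest Igfbp4 and the lowest Igfbp5 of the WT libraries, and CKO 2 likewise among the CKO libraries.

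Igfbp2 and Igfbp3 had few reads. Igfbp2 encodes a major binding protein of fetal serum and tissues and Igfbp3 the main carrier of IGF in adult serum. Igfbp2 had 9, 9 and 6 reads in WT 1, 2 and 3 and 7, 1 and 2 reads in CKO 1, 2 and 3. Its groups did not overlap in CPM (5.07 to 6.75 against 0.722 to 4.81), and the difference of -1.23 on the log2 scale had an adjusted p = 0.190 by limma. The ratio of its pooled reads, CKO over WT and scaled to the library totals, was 0.406 with a 95% interval of 0.173 to 0.882 (exact binomial, counting error only). Igfbp3 had 14 reads over all WT libraries and 2 over all CKO libraries, at most 1 in each. Its ratio of pooled reads was 0.139, with an interval of 0.0154 to 0.607, and limma's adjusted p was 0.0813.

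Igfbp6 was the only binding protein with a higher mean in CKO. It encodes a binding protein that prefers Igf2 over Igf1. The WT libraries 1, 2 and 3 had 24.6, 19.5 and 45.6 CPM, and the CKO libraries 43.3, 52.7 and 33.8 CPM. WT 3 lay within the CKO range, and the difference of 0.59 on the log2 scale (95% interval -0.12 to 1.29) missed the threshold (adjusted p = 0.321 by limma). With 1 library left out it ranged from 0.33 without WT 2 to 0.93 without WT 3 and passed in 0 of 6 fits. Without WT 3 and CKO 2 it was 0.78 and passed (limma's adjusted p = 0.0279), a setting chosen after the data were seen.

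The make-up of the binding proteins was compared within libraries as CPM per kb of annotated exons, since levels of different genes compare only per length. The 6 genes together reached 157, 158 and 209 CPM per kb in the WT libraries, against 75.6, 81.5 and 67.0 CPM per kb in the CKO libraries. Igfbp4 made up 38.3% to 46.6% of this sum in WT and 9.27% to 26.9% in CKO. Igfbp6 made up 11.1% to 19.6% in WT and 45.4% to 58.1% in CKO. The leading binding protein transcript per length was thus Igfbp4 in each WT library and Igfbp6 in each CKO library. This order rests on the exon lengths, 1.11 kb for Igfbp6, 4.42 kb for Igfbp4 and 6.01 kb for Igfbp5. By CPM alone, Igfbp5 was highest in WT 2, CKO 1 and CKO 3 (295, 96.3 and 111 CPM). Igfbp4 was highest by CPM in CKO 2 (96.7 CPM). The higher CPM of Igfbp6 itself missed the threshold. Igfbp7 made up 16.9% to 24.1% in WT and 9.52% to 14.3% in CKO, and the share of Igfbp5 overlapped between groups.

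**Figure D2:**
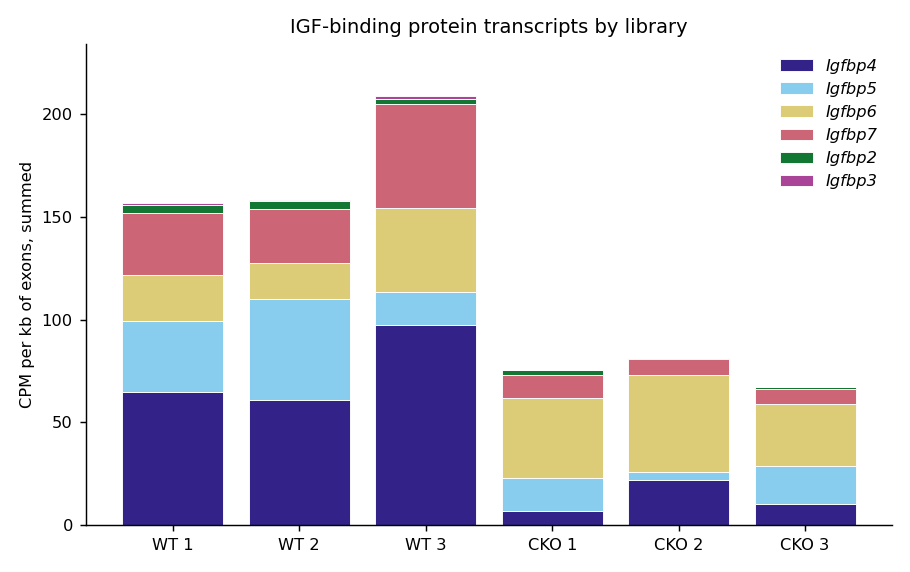
Summed CPM per kb of exons (y axis, from 0) of the 6 binding protein genes in each library (x axis), with 1 colour for each gene. The CKO libraries reach 67.0 to 81.5 CPM per kb, against 157 to 209 in WT, and Igfbp6 is the widest band in each CKO library.

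Among the ligands, Igf2 fell and Igf1 had no stable direction. Igf2 (ENSMUSG00000048583; chromosome 7, 142650766 to 142666816, minus strand) is an imprinted gene expressed mainly from the paternal allele. The WT libraries 1, 2 and 3 had 1674, 1829 and 1784 CPM, and the CKO libraries 1225, 582 and 1004 CPM. The WT libraries were close to each other, the CKO libraries were all lower, and CKO 2 was the lowest. The mean fell from 1762 ± 79.9 CPM to 937 ± 326 CPM (SD, n = 3), a difference of -0.98 ± 0.24 (log2 fold change ± standard error, adjusted p = 0.0402 by limma). The call was lost without WT 1 (limma's adjusted p = 0.130), WT 2 (0.149), WT 3 (0.0814) or CKO 3 (0.1003), at log2 fold changes of -1.06 to -0.95. It was also lost with a replicate block (limma's adjusted p = 0.0563) and with a pseudocount of 0.1 (0.0523). The alternatives as a whole gave Igf2 adjusted p-values of 6.17e-06 to 0.241. The smallest decrease, -0.66, was that without WT 3 and CKO 2. Gm49394, a protein-coding gene annotated on the same strand over Igf2, could share its reads. Its WT libraries had 68.9, 107 and 79.4 CPM and its CKO libraries 61.2, 33.2 and 39.9 CPM, again without overlap (log2 fold change -0.93, limma's adjusted p = 0.0663). The RefSeq table lists 4 start sites for Igf2, and the table of expression does not separate them. Of the imprinted neighbours, H19, Airn and Slc22a3 had no values under these symbols in the expression table. Ins2 and Slc22a2 had 4 reads each over all libraries.

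Igf1 (ENSMUSG00000020053; chromosome 10, 87858265 to 87937042, plus strand) had 35.5, 42.8 and 126 CPM in the WT libraries 1, 2 and 3, against 63.3, 26.0 and 66.7 CPM in the CKO libraries. WT 3 was the highest and CKO 2 the lowest of all libraries, and the groups overlapped. On the log2 scale the difference was -0.26 (95% interval -1.31 to 0.79, limma's adjusted p = 0.795), but it was 0.29 without WT 3 and 0.17 without CKO 2. Without both it was 0.72, so the direction for Igf1 depends on these libraries. It passed the threshold there (limma's adjusted p = 0.00897), but only among libraries kept for their likeness. WT 3 had the highest marker sums of the 3 WT libraries for chondrocytes (28740 CPM), hypertrophic chondrocytes (4521 CPM), osteoblasts (678 CPM), perichondrium and fibroblasts (6066 CPM), skeletal muscle (199 CPM) and macrophages and osteoclasts (389 CPM), but not for endothelial, erythroid and epidermal markers. CKO 2 had the lowest sums of all libraries for perichondrium and fibroblasts (1475 CPM) and for osteoblasts (340 CPM), and the highest skeletal muscle sum (258 CPM). That muscle sum rested mostly on Myog, at 179 CPM in CKO 2 against 15.1 and 13.0 CPM in CKO 1 and CKO 3. It therefore does not stand for the muscle list as a whole. The part of these cell types in the Igf1 level was not tested.

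Neither receptor gene passed the adjusted threshold with limma. Igf2r (ENSMUSG00000023830; chromosome 17, 12682406 to 12769664, minus strand) had 29.7, 27.8 and 31.3 CPM in the WT libraries 1, 2 and 3, against 21.3, 20.9 and 18.2 CPM in the CKO libraries. The groups did not overlap and varied little within themselves. The difference of -0.53 on the log2 scale (95% interval -1.04 to -0.029) missed the adjusted threshold (adjusted p = 0.208 by limma), and it stayed between -0.59 and -0.47 over all alternatives. Igf1r (ENSMUSG00000005533; chromosome 7, 67952827 to 68233668, plus strand) had 18.1, 21.0 and 21.96 CPM in the WT libraries, against 28.2, 23.1 and 14.7 CPM in the CKO libraries. Its CKO libraries lay on both sides of the WT range. Its difference on the log2 scale was 0.065 (95% interval -0.58 to 0.71, limma's adjusted p = 0.926), from 17 to 41 reads per library, and it turned to -0.013 without WT 1 and to -0.13 without CKO 1.

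**Figure D3:**
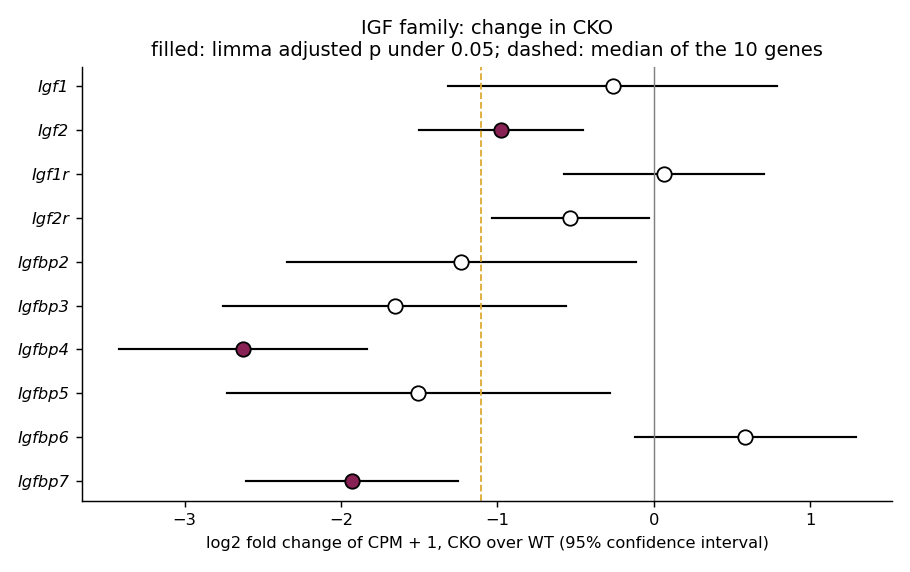
Log2 fold change of CPM + 1, CKO over WT (x axis), with 95% confidence intervals for the 10 genes; filled points passed limma's adjusted p of 0.05 and the dashed line is the median of the 10, -1.10. Igfbp4, Igfbp7 and Igf2 are filled and to the left of 0, and the intervals of Igf1, Igf1r and Igfbp6 span 0.

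Ranked by CPM per kb in WT, Igf2 came first at 308 ± 13.97 (SD, n = 3), followed by Igfbp4 at 74.3 ± 20.1. Igfbp7 (35.9 ± 12.7), Igfbp5 (33.2 ± 16.6) and Igfbp6 (26.9 ± 12.4) came next and overlapped each other. Igf1 (6.87 ± 5.07), Igfbp2 (3.31 ± 0.495) and Igf2r (3.18 ± 0.188) followed, each overlapping its neighbour. Igf1r (1.21 ± 0.119) and Igfbp3 (1.17 ± 0.45) were last and overlapped. In CKO, Igf2 was still first at 164 ± 57.0, but Igfbp6 (38.9 ± 8.49) was second, above Igfbp4 (13.0 ± 7.88), Igfbp5 (12.8 ± 7.83) and Igfbp7 (8.58 ± 1.95), which overlapped each other. The Igf2 level per length was 24.5 to 81.5 times that of Igf1 in WT and 26.0 to 38.8 times in CKO. Exon lengths came from GENCODE M21 and count all annotated isoforms, so these levels are approximate where a gene uses few of its exons.

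The genes whose profile over the 6 libraries was most like that of the members with the largest log2 fold changes were sought among 6819 other genes that averaged 10 CPM or more. Likeness was the root mean square difference of log2(CPM + 1), each gene centred on its mean. The nearest to Igfbp4 were the cartilage collagen genes Col9a2 (0.162), Col9a1 (0.294) and Col11a2 (0.295). For Col9a2 the WT libraries had 488, 468 and 726 CPM, and the CKO libraries 67.4, 142 and 80.6 CPM, so that WT 3 and CKO 2 were the highest of their groups, as in Igfbp4. The nearest to Igfbp7 were the zinc transporter gene Slc39a11 (0.153), the glypican gene Gpc3 (0.201) and Rflna (0.239). Those nearest to Igfbp3 were Tmem42 (0.231), Acan (0.231) and Slc39a11 (0.236), on few Igfbp3 reads. Those nearest to Igfbp5 were Gm28035 (0.239), Casp12 (0.3595) and Fam213b (0.371), each with its lowest WT value in WT 3 and its lowest CKO value in CKO 2.

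Other genes that act on IGF or transmit its signal were taken as 6 lists of 61 genes, of which 48 could be tested. Of these, 2 were lower and 0 higher past the adjusted threshold (2.60% and 3.18% of all genes), and 8 were lower and 2 higher at an unadjusted p under 0.05 (10.1% and 11.2% of all genes). Their median log2 fold change was -0.15, with 31 lower and 17 higher, where 49.2% of all genes tested were lower. The 2 genes that fell were Htra3 and Socs2, and edgeR (27 genes tested) and DESeq2 (32 with an adjusted p) also called Htra3 and Socs2 lower and 0 genes higher. With 1 library left out, 0 to 2 were lower and 0 to 2 higher: the count of lower genes was 0 without WT 1, CKO 1 or CKO 3, 1 without WT 2 or WT 3, and 2 without CKO 2, where Grb14 and Socs3 were higher. Without WT 3 and CKO 2, 3 genes were lower (Htra3, Socs2 and Stc2) and 4 higher (Grb14, Grb2, Rictor and Socs3) of 47 tested, where 9.22% of all genes were lower and 11.0% higher. Grb2 and Socs3 were named after these values were seen.

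Among proteases of binding proteins and their inhibitors, 1 of 6 genes passed. All 6 had a negative log2 fold change (median -0.34), as had 49.2% of all genes tested. Htra3, a secreted serine protease with a domain related to IGF-binding proteins, had 34.1, 21.8 and 71.8 CPM in the WT libraries 1, 2 and 3, against 11.003, 11.5 and 12.1 CPM in the CKO libraries. The CKO libraries were nearly equal and below all WT libraries. Htra3 fell by 1.63 ± 0.38 on the log2 scale (± standard error, adjusted p = 0.0359 by limma). The log2 fold change was -1.17 without WT 3 (limma's adjusted p = 0.0678), and the call was also lost without WT 1 (0.118), CKO 1 (0.105) or CKO 3 (0.108) and with a replicate block (0.0507). Pappa, which cleaves Igfbp4, had 8.45 to 13.8 CPM in the WT libraries and 6.50 to 9.53 CPM in the CKO libraries (log2 fold change -0.50, limma's adjusted p = 0.429). Stc2, an inhibitor of Pappa, had 28.7 to 48.6 CPM in the WT libraries and 26.0 to 60.6 CPM in the CKO libraries (log2 fold change -0.18, limma's adjusted p = 0.806), and the groups of both genes overlapped.

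In the growth hormone axis 1 of 7 tested genes passed (median log2 fold change -0.084). Socs2, which encodes a suppressor of growth hormone signaling, had 47.8, 46.5 and 32.9 CPM in the WT libraries 1, 2 and 3, against 17.9, 17.3 and 16.5 CPM in the CKO libraries. The groups did not overlap, and the CKO libraries were nearly equal. Socs2 fell by 1.23 ± 0.24 on the log2 scale (± standard error, adjusted p = 0.0166 by limma). The call was lost without WT 1 (limma's adjusted p = 0.0942), WT 2 (0.0907), CKO 1 (0.0575) or CKO 3 (0.0735), at log2 fold changes of -1.26 to -1.14. Ghr, the growth hormone receptor gene, had 49.0 to 56.3 CPM in the WT libraries and 17.3 to 46.8 CPM in the CKO libraries, without overlap (log2 fold change -0.85, limma's adjusted p = 0.153, and -0.50 without CKO 2).

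Of the 9 tested genes of the insulin receptor and its adaptors, 0 passed with limma, and 0 of the 6 tested with edgeR and 0 of the 7 with an adjusted p from DESeq2 passed. With limma 0 had an unadjusted p under 0.05. Of the 21 in the PI3K-Akt-Foxo-Mtor arm, 0 passed with limma, with 4 lower and 1 higher at an unadjusted p under 0.05, and 0 of 10 passed with edgeR and 0 of 11 with DESeq2. Their median log2 fold changes were -0.33 and -0.024. Among genes averaging 5 CPM or more, the largest difference in the first list was that of Grb14, an adaptor that inhibits insulin receptor signaling, with 33.0 to 43.9 CPM in the WT libraries and 36.8 to 71.9 CPM in the CKO libraries (log2 fold change 0.49, limma's adjusted p = 0.323, and 0.0382 without CKO 2). In the second it was that of Rictor, a subunit of mTOR complex 2, which had 44 reads in all and differed by 1.76 on the log2 scale (adjusted p = 0.127 by limma), but by 1.02 without WT 1, which had 0 reads, and by 2.34 without WT 2. Pik3r2, a regulatory subunit of PI3K, did not overlap (30.4 to 33.8 CPM in WT, 9.38 to 19.9 CPM in CKO) and differed by -1.005 on the log2 scale (adjusted p = 0.0874 by limma). In the list of other genes with IGF in their name, 0 of 5 passed with limma, with 1 lower and 1 higher at an unadjusted p under 0.05, and 0 of the 3 that edgeR tested and 0 of the 3 with an adjusted p from DESeq2 passed. Its largest difference among genes averaging 5 CPM or more was that of Igsf10, at -1.35 on the log2 scale (adjusted p = 0.0859 by limma), which belongs to the immunoglobulin superfamily and is no IGF gene. Igf2bp1, an RNA-binding protein that binds Igf2 mRNA, had a log2 fold change of 1.46 from 39 reads in all, without overlap (limma's adjusted p = 0.0726), and its paralog Igf2bp2 had 36.3 to 45.7 CPM in the WT libraries and 38.1 to 42.6 CPM in the CKO libraries. Pappa, Stc2, Ghr, Pik3r2, Igf2bp1 and Igf2bp2 were chosen after their values were seen.

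**Figure D4:**
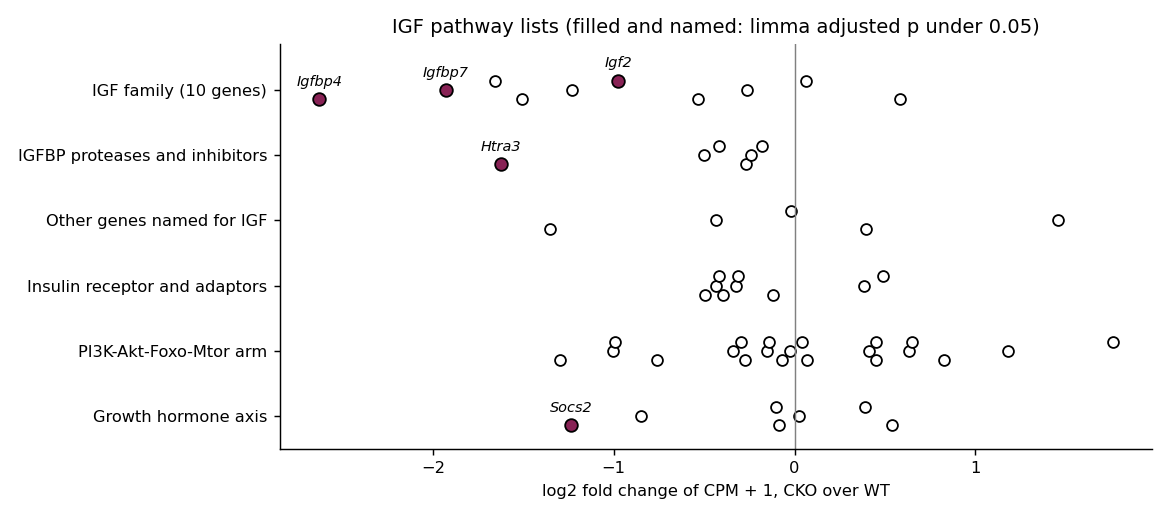
Log2 fold change of CPM + 1, CKO over WT (x axis), of the 10 family genes and of the tested genes of 5 IGF pathway lists (rows; the small vertical offsets only keep points apart), with filled points for limma's adjusted p under 0.05. Of the 48 genes outside the family, only Htra3 and Socs2 are filled, both left of 0.

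Markers of other cells moved with some of these results. The perichondrium and fibroblast list (8 genes) summed to 3755 to 6066 CPM in the WT libraries and 1475 to 2870 CPM in the CKO libraries. Of its genes, Dcn and Col1a2 were lower past the test and 0 higher. In 5 of the 8 every CKO library lay below every WT library (13.2% of all genes). Lum, Postn and Pdgfra overlapped, Lum with 482 to 862 CPM in the WT libraries and 254 to 712 CPM in the CKO libraries. The osteoblast list (6 genes) summed to 436 to 678 CPM in the WT libraries and to 1026, 340 and 1150 CPM in CKO 1, 2 and 3, with 0 genes past the test. The macrophage and osteoclast list (9 genes) was at 153 to 389 CPM and 293 to 313 CPM, with Cd68 higher past the test and Ptprc at 1 read over all libraries. The skeletal muscle list (9 genes) summed to 43.5 to 199 CPM in the WT libraries and 107 to 258 CPM in the CKO libraries. Of the 258 CPM, in CKO 2, Myog alone gave 179 CPM. Endothelial markers were near 0, with Pecam1 at 3 reads and Cdh5 at 1 read over all libraries. The hypertrophic list (5 genes) summed to 1366 to 4521 CPM in the WT libraries and 12321 to 14392 CPM in the CKO libraries. Spp1, the only member past the test, made up most of it, at 1037 to 3769 CPM in the WT libraries and 11114 to 12045 CPM in the CKO libraries. The other members did not move together. Mmp13 had 257 to 650 CPM in the WT libraries and 2155, 377 and 2301 CPM in CKO 1, 2 and 3. It had a higher mean in CKO but overlapped through CKO 2 and WT 3 (log2 fold change 1.81, limma's adjusted p = 0.118). Col10a1 also overlapped (log2 fold change 0.33, limma's adjusted p = 0.738). Pth1r had 51.8 to 58.7 CPM in the WT libraries and 20.2 to 39.2 CPM in the CKO libraries (adjusted p = 0.0661 by limma). Ihh had 3 reads in all. The epidermal list summed to 21.1 to 42.0 CPM in the WT libraries and 61.4 to 119 CPM in the CKO libraries, with Sbsn higher past the test. Sbsn was the only member without overlap, at no more than 3.38 CPM in the WT libraries and 16.6 to 83.9 CPM in the CKO libraries. Krt10 overlapped (log2 fold change 0.41, limma's adjusted p = 0.484), and Krt1, Krt15 and Krtdap had 3, 2 and 1 reads in all. The sum therefore does not stand for the epidermal list as a whole. The erythroid markers summed to 28.9 CPM in CKO 2, mostly from Hba-a2 (28.1 CPM), and to at most 6.07 CPM in any other library. The part of these cells in the lower Igfbp4, Igfbp7 and Igf2 was not tested.

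**Figure D5:**
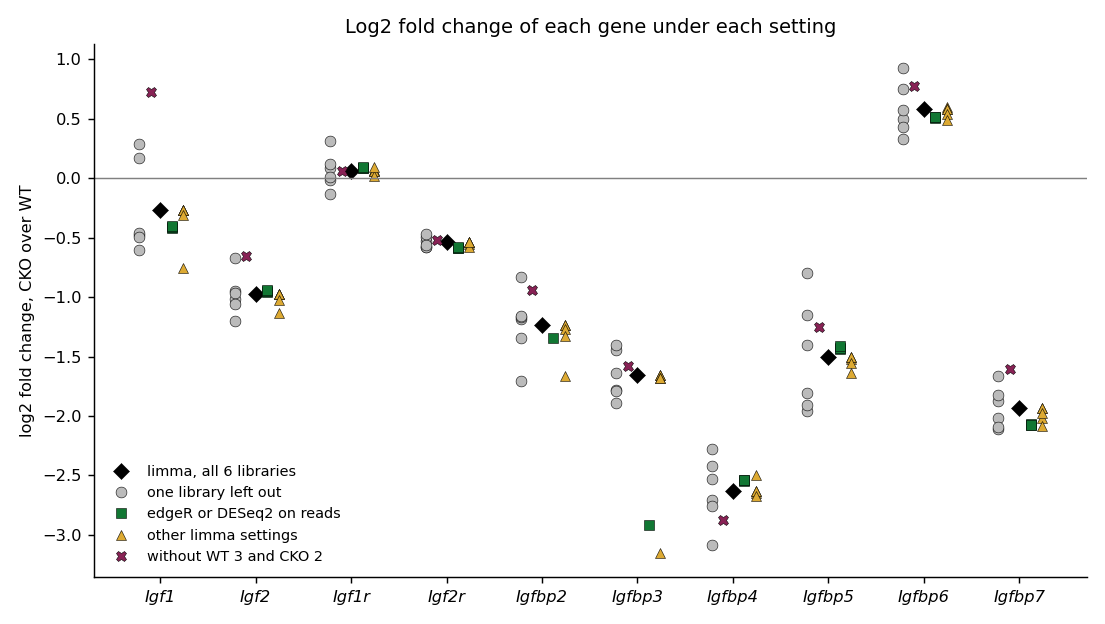
Log2 fold change, CKO over WT (y axis), of each family gene (x axis) under limma with all 6 libraries (diamond), with 1 library left out (grey), with edgeR or DESeq2 on recovered reads (green), with other limma settings (yellow) and without WT 3 and CKO 2 (purple cross). Igfbp4 and Igfbp7 stay below -1.6 throughout, and Igf1 and Igf1r lie on both sides of 0.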

How the data were processed

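RNA was extracted from E18.5 growth plate cartilage, and sequencing libraries followed a stranded mRNA protocol. The authors deposited CPM per gene and library, and the values were not pooled. The submitters' processing notes name cutadapt 2.5, HISAT2 and featureCounts 1.6.3, while the genome build, annotation and strand setting are not given in the sources used here. Whole reads were recovered from the CPM (1183743 to 1379674 per WT library and 1153871 to 1454094 per CKO library), so a gene with 3 reads stands at 2.06 to 2.60 CPM. Intervals of pooled read ratios cover counting error only. Those of log2 fold changes come from limma and reflect the spread between libraries.

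limma 3.58.1 in R 4.3.3 was fitted with genotype as the only term to log2(CPM + 1) of 12155 genes, with empirical Bayes moderation along a mean trend and Benjamini-Hochberg adjustment over all of them. An exact permutation test of 3 libraries against 3 cannot give a p below 0.1. Alternatives were a pseudocount of 0.1, no filter, a replicate block, each library left out, edgeR 4.0.16 (quasi-likelihood, TMM or RLE) and DESeq2 1.42.0 on recovered reads, CPM rescaled by TMM, an adjusted p of 0.01 and the study's criterion. Leaving out WT 3 and CKO 2 together, and averaging WT 1 with WT 2 and CKO 1 with CKO 3, were chosen after seeing the data. Coordinates are from GENCODE M21 (GRCm38), in which 15212 of 15217 Ensembl identifiers were found. Copies with at least 90% identity over 300 bp were sought with BLAST 2.17.0, which found 1 for Igf2 (Gm49394) and none for the other members. The tests were tested on simulated counts. The members and gene lists were chosen with earlier results of these data known. Named are the members, list genes past the adjusted threshold or, in a list without one, the gene with the largest log2 fold change at a mean of at least 5 CPM, and the 3 genes nearest in profile to each of 4 members.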

Additional observations from a re-analysis of the deposited data

How the results depend on the processing

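Of the family genes, Igfbp4 and Igfbp7 kept their direction and their call in 14 of 15 alternatives and Igf2 its direction in 15 and its call in 8. Igf2r, Igfbp2, Igfbp3, Igfbp5 and Igfbp6 kept their direction throughout, with Igfbp2 and Igfbp3 left out of edgeR by its filter and given no adjusted p by DESeq2. The log2 fold change of Igf1 turned to 0.29 without WT 3, 0.17 without CKO 2 and 0.72 without both, and that of Igf1r to -0.013 without WT 1 and -0.13 without CKO 1. With a library left out they ranged from -0.61 to 0.29 for Igf1 and from -0.13 to 0.32 for Igf1r. The cause was not tested. Rescaling by TMM moved the median of all genes by -0.041 on the log2 scale and turned no member.

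Among all genes tested, 387 were called higher and 316 lower, and new fits with 1 library left out called 123 to 692 higher and 79 to 606 lower. The family count with a library left out was 0 higher and 2 to 3 lower. Without WT 3 and CKO 2, 1312 genes were higher and 1098 lower, and 2 family genes were higher (Igf1, Igfbp6) and 4 lower (Igf2, Igfbp4, Igfbp5, Igfbp7). With the nearest pairs averaged, 5 genes were higher, 6 were lower and 0 family genes were called, where limma had 2 values a group (Igfbp4 adjusted p = 0.105). An adjusted p under 0.01 gave 114 higher and 71 lower. The study's criterion, applied to limma's values here, gave 644 higher and 620 lower, with 5 family genes lower, Igf2 not among them. Of the 48 pathway genes, 0 to 2 were higher and 0 to 2 lower with a library left out, 4 higher and 3 lower without WT 3 and CKO 2, 1 lower with the replicate block and 0 with the nearest pairs averaged. edgeR with TMM called 374 genes higher and 363 lower among 7704.

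The replicate block, with the replicate number as a term, gave 225 genes higher and 160 lower, and it ended the calls of Igf2 (adjusted p = 0.0563) and of Htra3 (0.0507) but not those of Igfbp4 (0.00956) and Igfbp7 (0.0233). The labels do not say what the numbers mark, and same-numbered libraries deviated with correlations of 0.0378, -0.131 and -0.103. No library correlated best with the library of its own number. Igfbp2 and Igfbp3, with 34 and 16 reads in all, had the fewest reads of the family.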
